A study of Mus musculus with 16 samples.

Results

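The junctions described here join a DNA break in Myc to the part of mouse chromosome 15 that lies on its centromeric side, more than 1 Mb away. A junction was counted in this region when its prey end, the genomic end joined to the break, lay on chromosome 15 more than 1 Mb below the break in genome build mm9. The break itself was placed at position 61819433, the median position of the junctions labelled Myc. The region held 9166 of the 141167 junctions of the series, which is 6.49% of all junctions and 19.1% of the 47919 junctions beyond 1 Mb of the break. The telomeric side of chromosome 15 held 5274 of these distant junctions, and 33479 lay on other chromosomes. The rule uses position alone. Just inside its limit, within 100 kb, lay 24 junctions of the ATM-deficient anti-CD40/IL4 libraries, 72 with KU55933, 18 of WT anti-CD40/IL4, 7 of the RP105 libraries labelled ATM-deficient and 45 of those labelled WT. Just outside it lay 15, 74, 13, 6 and 29, in the same order of groups.

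Junctions were read by translocation sequencing (HTGTS), in which reads start at a chosen break, the bait, and run into whatever was joined to it. As bait, 25 I-SceI sites stood in the first intron of one Myc allele and were cut by I-SceI delivered by retrovirus. The cells were IgM+ B cells from spleens of mice of the 129sv strain, aged 6 to 8 weeks. Under anti-CD40 at 1 µg/mL with IL4 at 20 ng/mL, infected at 24 h and harvested on day 4, there were 3 ATM-deficient libraries, 3 WT libraries with the ATM inhibitor KU55933 at 10 µM, and 4 WT libraries. With RP105 antibody (2 µg/mL), infection at 48 h and harvest on day 5, there were 3 libraries labelled ATM-deficient and 3 labelled WT. All 5 groups carried the same bait. The sample titles number the replicates and name no mouse, so p-values measure the spread between libraries, which may be technical.

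A chromosome with a break tends to rejoin to itself, because ends on the same chromosome are close to each other in the nucleus, and junction density falls as the distance along the chromosome grows. ATM is the kinase that signals double-strand breaks and helps to hold broken ends together until they are joined. Joins within the chromosome arm can be deletions, inversions or excised circles, depending on which way the prey end points.

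A sequence of the region that resembles the bait's own target is shown first. It lies in the densest window of 2 kb without a gene label and was chosen after the junctions had been seen. The junction counts near it are therefore high by selection and serve as a description. It was also the closest match to the I-SceI recognition site in the sequence that could be read, which came from the prey ends of junctions. It lies at chr15:16219309-16219406 of mm9 on the plus strand, 45.6 Mb from the break, with no gene label. The capitals mark the 18 bases from 16219349 to 16219366 that match the recognition site except for T15G, counted from 1 at the 5′ end of the site as it is read in the bait part of the reads.

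I-SceI-like site: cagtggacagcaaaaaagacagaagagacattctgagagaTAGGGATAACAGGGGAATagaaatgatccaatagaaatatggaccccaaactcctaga

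The prey sequences gave 926722 windows, which cover 1.52% of the positions of the region. None of these matched the site in full, 1 had at most 2 differences and 2 had at most 3, and the rest of the region was not searched. Within 100 bases of it lay 13 junctions, 6 on the plus strand and 7 on the minus strand, and 9 of them within 20 bases. KU55933 replicate 3 held 10, KU55933 replicate 2 held 2, the library labelled WT RP105 replicate 3 held 1, and the other 13 libraries held 0. KU55933 replicates 3 and 2 were also the deepest libraries of the series, with 18264 and 17035 junctions.

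**Figure D1:**
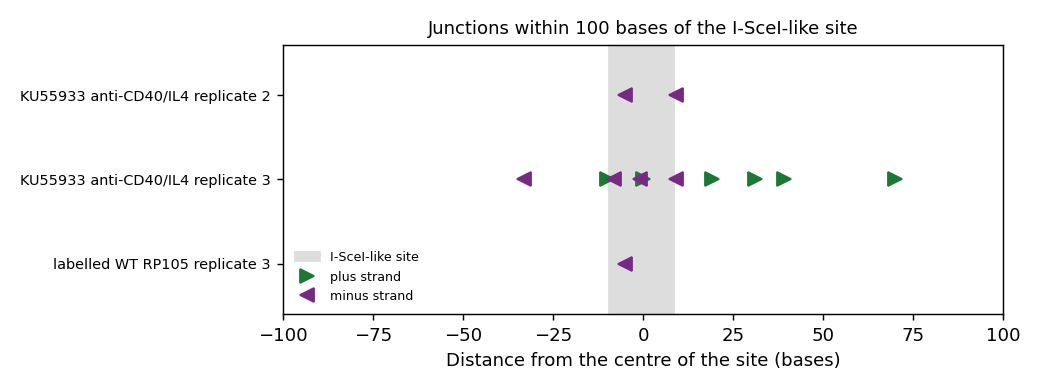
Junctions within 100 bases of the I-SceI-like site, by distance in bases from its centre (horizontal) and by library (vertical). Triangles pointing right are plus-strand and those pointing left minus-strand junctions, and the grey band is the 18-base site. Of the 13 junctions, 12 are from KU55933 libraries.

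A second stretch shows what a dense group of junctions without a gene label looked like nearer to the break. It too was chosen for its density after the junctions had been seen, so its counts are a description. It covers chr15:59973378-59973578 of mm9, plus strand. The capitals mark the 7 bases at which 8 junction positions fell, 7 in KU55933 and 1 in ATM-deficient anti-CD40/IL4 libraries. In the whole region these groups held 4216 and 1643 of the 9166 junctions.

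Cluster without a gene label: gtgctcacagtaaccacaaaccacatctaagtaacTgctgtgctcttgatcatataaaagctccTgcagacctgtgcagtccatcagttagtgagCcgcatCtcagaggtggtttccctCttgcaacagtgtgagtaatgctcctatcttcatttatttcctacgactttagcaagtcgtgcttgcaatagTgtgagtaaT

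The junctions of the region were spread thinly. Counting distinct positions in windows of 2 kb, the densest window lay in Trib1 and held 25, the next in Mtdh held 23, and those at the I-SceI-like site, in Fam105b and in Ankrd33b held 20, 20 and 19. The windows in Fam105b and Ankrd33b drew 15 and 17 of their positions from KU55933 libraries and 0 from the RP105 libraries. The Trib1 window drew 11 from the RP105 libraries labelled WT. Of the 9166 junctions of the region, KU55933 libraries held 4216, RP105 libraries labelled WT 2394 and those labelled ATM-deficient 369. Start-site windows of 300 bases that RefSeq gives for chromosome 15 were matched by 25 junctions, 0.273% of the region, and 10 of these matched Gm41331. The windows make up at most 0.271% of the whole chromosome. Their share of the region alone was not computed, so enrichment was not tested.

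Some properties of the libraries bear on the results. The libraries labelled WT RP105 replicate 3 and ATM-deficient RP105 replicate 3, sequenced in the same run, shared 50 junction positions of the region, 26.6% of the 188 positions of the library labelled ATM-deficient and 4.20% of the 1191 of the one labelled WT. KU55933 replicates 1 and 2, also from 1 run, shared 35, and the other 118 pairs of libraries shared at most 3. By their run names, all ATM-deficient and WT anti-CD40/IL4 libraries were sequenced on a different type of instrument from the KU55933 and RP105 libraries. The inhibitor therefore cannot be told apart from the sequencer, nor can the stimulus. RP105 libraries were also infected at 48 h instead of 24 h and harvested on day 5 instead of day 4. These times cannot be told apart from the stimulus either. The genotype difference under RP105 ran opposite to that under anti-CD40/IL4, and junction lists do not allow ATM itself to be checked, so the RP105 groups are called by their labels. Junctions of the region at a position and strand already found in the same library numbered 56, 16 and 78 in the libraries labelled WT RP105. Any other library held at most 11. Junctions labelled Smu, Sg1 or Se, the Igh switch regions that are broken in class switching of B cells, numbered 25.3 to 36.1 for every 1000 junctions beyond 1 Mb in ATM-deficient, 44.6 to 61.6 in KU55933 and 85.2 to 107 in WT anti-CD40/IL4 libraries. They numbered 0 to 16.9 and 2.61 to 3.78 in the RP105 libraries labelled ATM-deficient and WT. These junctions are part of the total that shares are taken of. The T cell receptor loci held 0 to 5 per library.

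Under anti-CD40/IL4, a larger part of the junctions fell in the region when ATM was missing or inhibited. Of the junctions beyond 1 Mb, the region took 15.4%, 16.6% and 18.4% in the ATM-deficient libraries, against 11.3%, 8.78%, 8.97% and 9.76% in WT. Every ATM-deficient library stood above every WT library. With KU55933 the shares were 16.5%, 18.9% and 23.5%, also all above WT. In these per-library shares the means were 16.8% ± 1.47 (SD, n = 3) for ATM-deficient and 9.71% ± 1.16 (SD, n = 4) for WT, with an exact two-sided permutation p of 0.0286, the smallest that 4 against 3 libraries allow, and 0.114 after Benjamini-Hochberg adjustment over 36 tests. No adjusted p of this family of tests could pass 0.05 at these group sizes. Junctions beyond 1 Mb were 9832 of all 21796 in ATM-deficient, 20930 of 45827 in KU55933 and 5568 of 25851 in WT libraries. Of these, the telomeric side of chromosome 15 took 1371, 2072 and 567, in the same order. Its pooled part was thus also larger in ATM-deficient than in WT libraries, but not with KU55933. The rise in ATM-deficient libraries was therefore not particular to the region.

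On the scale of the whole genome, the count of the region was tested by edgeR's quasi-likelihood test among 28 features, which were chromosomes, receptor loci and both sides of chromosome 15. It was higher in ATM-deficient than in WT anti-CD40/IL4 libraries, at 0.78 on the log2 scale (SE 0.13, adjusted p = 6.46e-05), where 10.7% of features were called higher, 10.7% lower and the median feature stood at -0.18. With KU55933 against WT it was 1.01 (SE 0.12, adjusted p = 2.67e-06), where 7.14% were called higher, 21.4% lower and the median was -0.14. ATM-deficient against KU55933 libraries gave -0.23 (SE 0.12), which missed the threshold in edgeR (adjusted p = 0.152) and passed it without KU55933 replicate 1, at -0.34 (adjusted p = 0.030). Here 3.57% of features were called higher and 10.7% lower. Both runs that held an ATM-deficient and a WT library showed the difference. In one run the share was 16.6% in the ATM-deficient and 8.97% in the WT library, and in the other 18.4% and 9.76%.

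Under RP105 the order of the labels was the opposite. The region took 9.70%, 11.3% and 13.03% of the junctions beyond 1 Mb in the libraries labelled ATM-deficient, against 27.5%, 25.2% and 30.0% in those labelled WT. The groups did not overlap, and by this share those labelled WT stood above all other libraries of the series. The log2 fold change was -1.26 (SE 0.14, adjusted p = 3.53e-07 in edgeR), where 10.7% of features were called lower, 39.3% higher and the median feature stood at 0.40. The per-library means were 11.3% ± 1.67 and 27.6% ± 2.36 (SD, n = 3 each), with an exact permutation p of 0.1, the smallest that 3 against 3 allow. With positions shared within a run removed, the means were 11.03% ± 0.870 and 27.8% ± 2.41 (SD, n = 3 each). Within the 2 shared runs, libraries labelled ATM-deficient averaged 10.5% against 25.2% in the library labelled WT, and 13.03% against 30.0%. Of all junctions, including those within 1 Mb, the region took 1.09% to 1.83% with the ATM-deficient and 8.63% to 10.9% with the WT label. The WT label then overlapped KU55933 (7.84% to 10.8%) and ATM-deficient anti-CD40/IL4 libraries (6.30% to 9.04%). WT anti-CD40/IL4 libraries took 1.68% to 2.75%. The telomeric side took 283 of 3138 junctions beyond 1 Mb with the ATM-deficient and 981 of 8451 with the WT label. Its part was thus also smaller with the ATM-deficient label.

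Set against the same label under anti-CD40/IL4, the region was higher in the RP105 libraries labelled WT, with a log2 value of 1.51 (SE 0.13, adjusted p = 2.52e-09 in edgeR), where 7.14% of features were called higher and 42.9% lower. It was lower in the RP105 libraries labelled ATM-deficient, at -0.53 (SE 0.14, adjusted p = 0.00528 in edgeR), where 14.3% were called lower. The interaction, which subtracts the difference between labels in anti-CD40/IL4 from the one in RP105, was -2.04 (SE 0.19, adjusted p = 2.43e-08), where 10.7% of features were called lower, 53.6% higher and the median stood at 0.63.

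**Figure D2:**
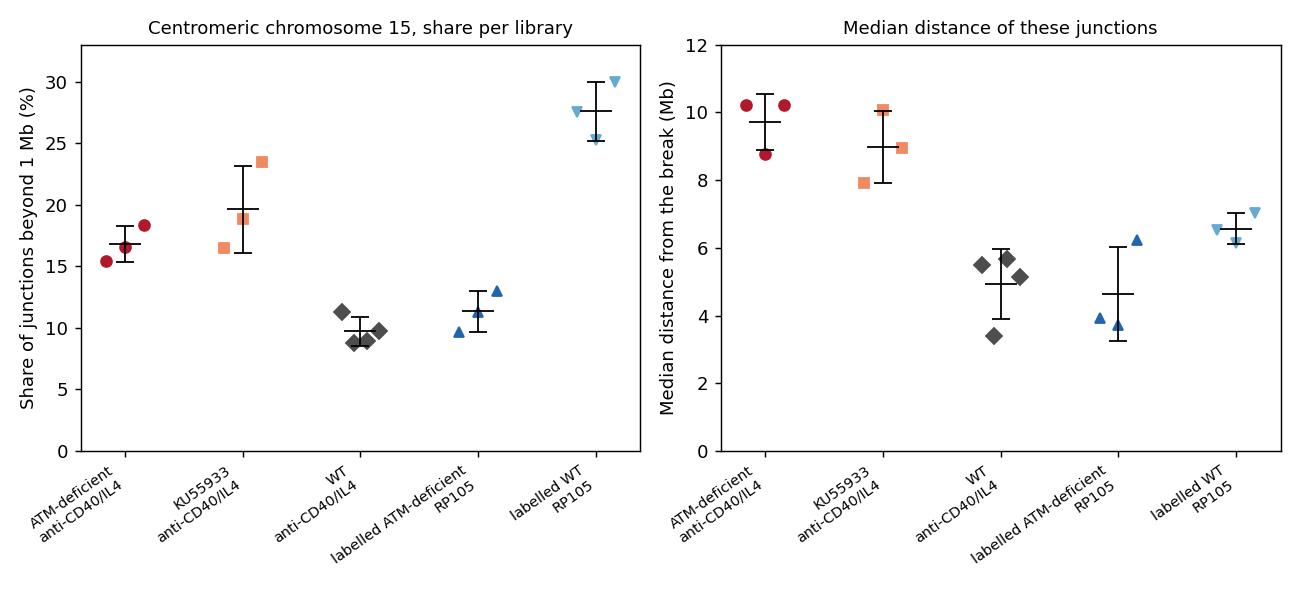
Left, the share of each library's junctions beyond 1 Mb that fell in the region (%), and right, the median distance of these junctions from the break (Mb). Points are libraries, bars the mean and SD (n = 4 for WT anti-CD40/IL4, otherwise 3), with RP105 groups as labelled. The libraries labelled WT RP105 lie between 25.2% and 30.0%, above all others.

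The shift was not even along the chromosome. With all junctions beyond 1 Mb counted, ATM-deficient and KU55933 junctions lay farther out than WT junctions under anti-CD40/IL4. The median distance from the break was 10.2, 8.76 and 10.2 Mb in ATM-deficient libraries, 7.92, 10.1 and 8.95 Mb with KU55933, and 5.49, 3.41, 5.66 and 5.14 Mb in WT. Both differences had the smallest exact permutation p the design allows, 0.0286, and an adjusted p of 0.114. The share of the region's junctions lying within 10 Mb was 50.01% ± 2.55 (SD, n = 3) in ATM-deficient, 52.2% ± 2.44 (SD, n = 3) in KU55933 and 60.8% ± 1.91 (SD, n = 4) in WT libraries, with no overlap between WT and either of the others. With 2 Mb around the break left out, the differences in median distance shrank to 2.09 Mb for ATM-deficient and 1.29 Mb for KU55933, with overlap and exact permutation p of 0.2 and 0.314. Those in the share within 10 Mb became -5.14 points (p = 0.0286 in the exact test) and -3.70 points (p = 0.114), the second with overlap.

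Under RP105 the medians were 3.93, 3.72 and 6.24 Mb with the ATM-deficient label and 6.53, 6.13 and 7.03 Mb with the WT label, which overlapped. The value of 6.24 Mb belongs to replicate 3, the library that shares 26.6% of its positions with the one labelled WT in its run. With shared positions removed, the means were 4.29 ± 0.812 and 6.54 ± 0.414 Mb (SD, n = 3 each), with an exact permutation p of 0.1, against 0.2 with them.

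The mean density of junctions fell steeply between 2 and 20 Mb and was lowest at 40 to 61 Mb in all 5 groups. It is given here as junctions per Mb for every 1000 junctions beyond 1 Mb, as the mean over libraries. At 2 to 5 Mb it was 14.7 ± 1.24 in ATM-deficient, 16.3 ± 2.40 in KU55933 (SD, n = 3 each) and 9.42 ± 1.65 in WT anti-CD40/IL4 libraries (SD, n = 4). At 10 to 20 Mb it was 1.85 ± 0.549, 2.45 ± 0.823 and 0.722 ± 0.145, and at 20 to 40 Mb 2.18 ± 0.292, 2.30 ± 0.263 and 1.04 ± 0.179, in the same order. Mean density in ATM-deficient and WT anti-CD40/IL4 libraries was higher at 20 to 40 Mb than at 10 to 20 Mb. This was also so in the RP105 libraries labelled ATM-deficient. There it was 15.5 ± 1.195 at 2 to 5 Mb, 0.895 ± 0.384 at 10 to 20 Mb and 0.970 ± 0.147 at 20 to 40 Mb. In those labelled WT it was 29.5 ± 2.30, 3.34 ± 0.895 and 2.36 ± 0.448 (SD, n = 3 each). At 40 to 61 Mb it was 1.05 ± 0.138 in ATM-deficient, 1.12 ± 0.248 in KU55933 (SD, n = 3 each) and 0.471 ± 0.0768 in WT anti-CD40/IL4 libraries (SD, n = 4), below the mean at 20 to 40 Mb in each. This class was counted to 61 Mb, although the farthest junction lay at 58.7 Mb, which lowers its density slightly. At 1 to 2 Mb the ranges of ATM-deficient and WT anti-CD40/IL4 libraries overlapped, at 10.8 to 19.5 and 14.3 to 24.0.

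**Figure D3:**
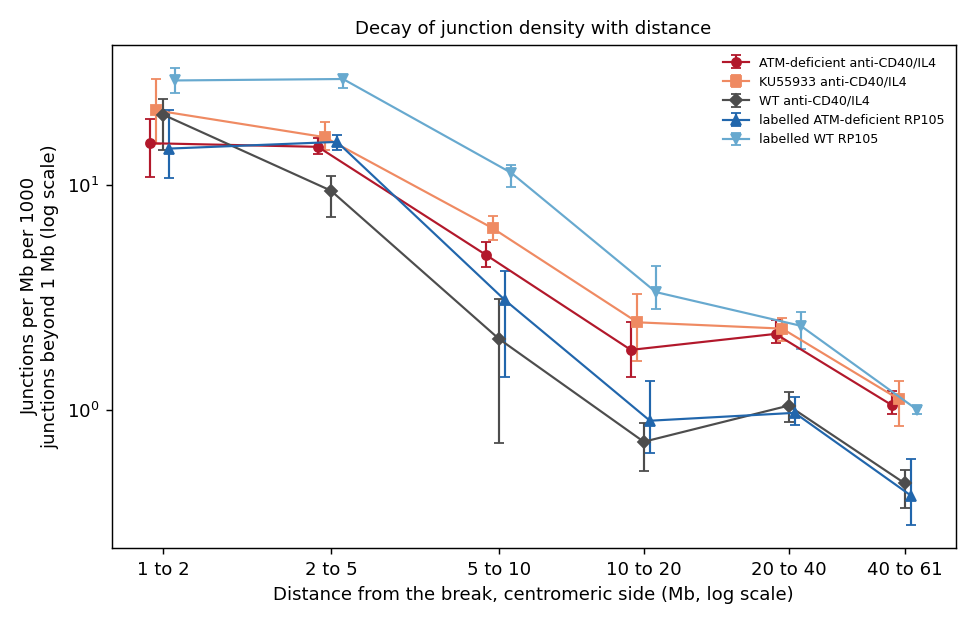
Junctions per Mb for every 1000 junctions beyond 1 Mb (log scale) against distance from the break on the centromeric side (Mb, log scale), by group. Points are means over libraries and bars the lowest and highest library. The mean of the libraries labelled WT RP105 is the highest from 1 to 40 Mb. Its bars overlap those of KU55933 at 1 to 2, 10 to 20 and 20 to 40 Mb. At 20 to 40 Mb they also overlap those of ATM-deficient anti-CD40/IL4 libraries.

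In bins of 5 Mb counted outward from 1 Mb, all 12 bins of the region had a positive log2 fold change in ATM-deficient against WT anti-CD40/IL4 libraries, and 5 were called higher by edgeR, where 1.68% of the 476 bins of the genome were. The called bins lay at 6 to 11, 11 to 16, 21 to 26, 31 to 36 and 51 to 56 Mb. The largest change was 1.52 (SE 0.26, adjusted p = 8.91e-06) at 6 to 11 Mb. The nearest bin, from 1 to 6 Mb, gave 0.29 (SE 0.19, adjusted p = 0.702). The count fell to 2 without WT replicate 3 or with the sequencing run as a block, and to 3 without ATM-deficient replicate 3, WT replicate 1 or WT replicate 2. With KU55933 against WT 7 bins were called higher, where 1.68% of all bins were, with 1.79 (SE 0.25, adjusted p = 3.28e-09) at 6 to 11 Mb. The 11 to 16 Mb bin reached 1.95 (SE 0.35, adjusted p = 1.50e-05). Without WT replicate 2 or 3, 4 bins were called. ATM-deficient against KU55933 libraries had 0 of 12 bins called by edgeR in either direction, where 0.210% of all bins were called each way, and 3 bins with an unadjusted p under 0.05. Without KU55933 replicate 1, 3 bins were called lower.

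Under RP105 all 12 bins were lower in sign in the libraries labelled ATM-deficient than in those labelled WT, and 6 were called lower, where 1.68% of all bins were called lower and 0.42% higher. Here the nearest bin was among them, at -1.03 (SE 0.20, adjusted p = 0.000145). The bin at 6 to 11 Mb gave -1.65 (SE 0.26, adjusted p = 3.75e-07) and the one at 36 to 41 Mb -2.10 (SE 0.58, adjusted p = 0.0215). Between stimuli, 6 bins were called higher in RP105 than in anti-CD40/IL4 libraries labelled WT, where 1.89% of bins were called higher and 2.1% lower, with 2.62 (SE 0.25, adjusted p = 6.96e-19) at 6 to 11 Mb. In libraries labelled ATM-deficient 2 bins were called lower under RP105, where 1.26% were, and leaving out any 1 of the 6 libraries left 0 or 1. The interaction was negative in all 12 bins and called in 9, where 2.73% of bins were called lower.

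**Figure D4:**
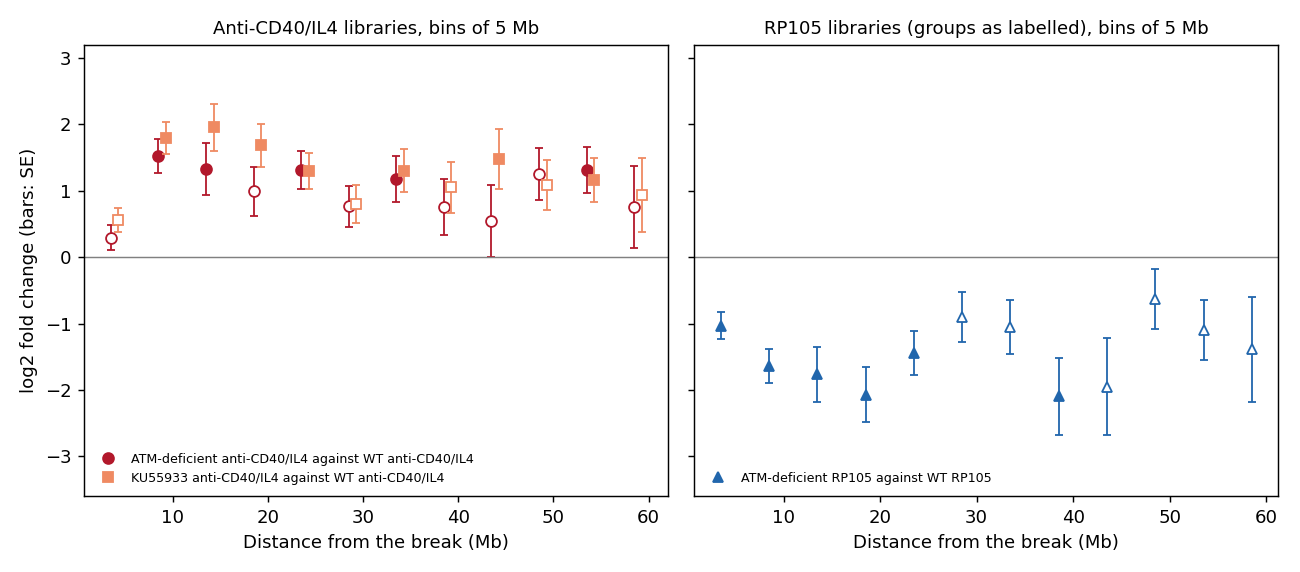
log2 fold change of junction counts in the 12 bins of 5 Mb, against distance from the break (Mb), with SE bars. Left, ATM-deficient and KU55933 against WT under anti-CD40/IL4, and right, RP105 libraries labelled ATM-deficient against those labelled WT. Filled symbols passed an adjusted p of 0.05, which 5, 7 and 6 bins did.

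The prey strand was not evenly split. Plus-strand junctions made up 51.7%, 60.3% and 57.9% of the region in ATM-deficient libraries, 59.4%, 56.8% and 59.8% with KU55933, and 63.7%, 65.7%, 67.5% and 60.7% in WT anti-CD40/IL4 libraries. The libraries of WT lay above all the others under this stimulus, with an exact permutation p of 0.0571 and an adjusted p of 0.158 in both comparisons. With 2 Mb around the break left out, the groups overlapped, with exact permutation p of 0.2 for ATM-deficient and 0.257 for KU55933. In RP105 libraries the plus share averaged 75.0% ± 6.66 where labelled ATM-deficient and 67.8% ± 1.88 where labelled WT (SD, n = 3 each), with no overlap and an exact permutation p of 0.1. That p was 0.4 with 2 Mb left out, and the difference of 7.14 points was 3.31 without ATM-deficient replicate 1. Junctions on other chromosomes had a plus share of 48.4% to 52.2% in all 16 libraries.

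The excess of plus-strand junctions was larger near the break. Strand is that of the prey alignment as the files give it. At 1 to 5 Mb the plus share was 58.2% ± 5.76 in ATM-deficient, 63.8% ± 4.21 in KU55933 (SD, n = 3 each) and 72.9% ± 4.16 in WT anti-CD40/IL4 libraries (SD, n = 4). Beyond 20 Mb it was 55.4% ± 4.23, 54.7% ± 4.49 and 55.4% ± 8.03. At 1 to 5 Mb it was 82.5% ± 5.63 in RP105 libraries with the ATM-deficient label and 74.0% ± 1.45 with the WT label, and beyond 20 Mb 58.0% ± 12.9 and 60.1% ± 6.96 (SD, n = 3 each). The share at 1 to 5 Mb exceeded that beyond 20 Mb in 16 of 16 libraries, by 13.8 percentage points on average. This contrast was chosen after the profile had been seen, and a paired exact sign-flip permutation test gave 3.05e-05, the smallest it can give.

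**Figure D5:**
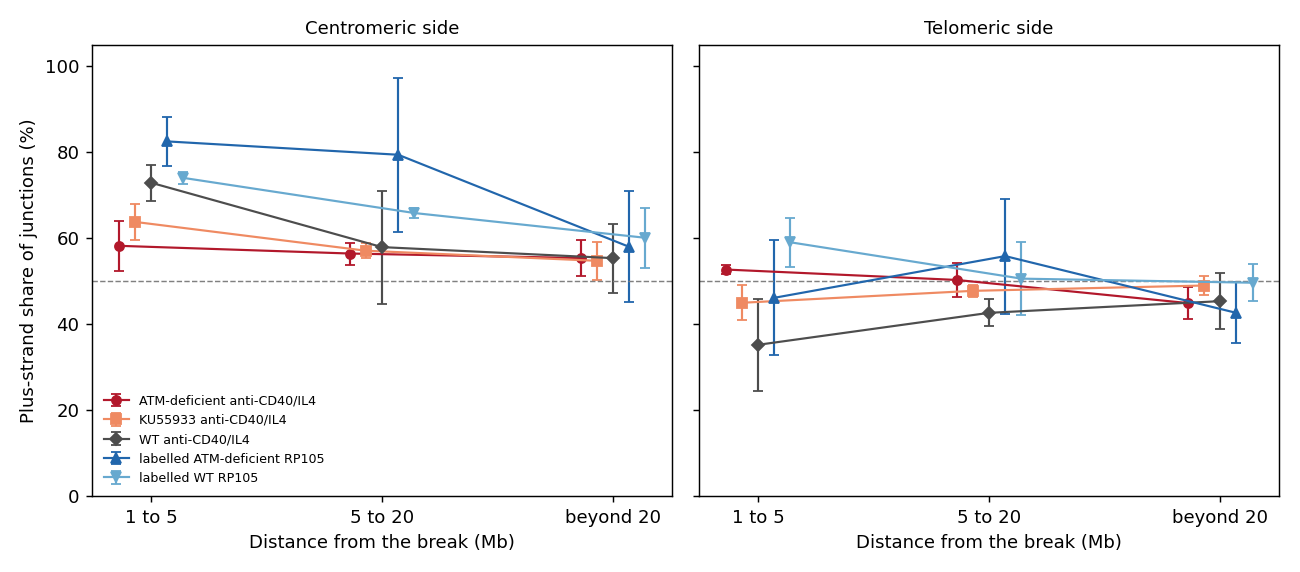
Plus-strand share of junctions (%) at 1 to 5, 5 to 20 and beyond 20 Mb from the break, on the centromeric side (left) and the telomeric side (right). Points are means over libraries and bars the SD, by group, and the dashed line marks an even split. On the centromeric side all 5 groups have their highest mean at 1 to 5 Mb.

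The opposite, telomeric side of the break served as a comparison within each library. The plus share was higher on the centromeric side in 16 of 16 libraries, by 17.2 percentage points on average (SD 7.72). The share of junctions within 10 Mb was higher by 40.1 points (SD 9.50), again in 16 of 16. The share with a gene label was lower by 13.3 points in 16 of 16 libraries, at 41.7% on the centromeric and 55.0% on the telomeric side. Each of the 3 had an adjusted p of 4.07e-05 in the paired exact sign-flip permutation test. Density per Mb over the whole of each side went in different directions between groups. The mean log2 ratio of the centromeric over the telomeric side was -0.31 (SD 0.26, n = 3) in ATM-deficient, 0.37 (SD 0.38, n = 3) in KU55933 and -0.66 (SD 0.13, n = 4) in WT anti-CD40/IL4 libraries. It was -0.22 (SD 0.063) in RP105 libraries labelled ATM-deficient and 0.64 (SD 0.20) in those labelled WT (n = 3 each). Its sign was the same in all libraries of each group but KU55933, and the mean over all 16 libraries, -0.07, averages over these directions. The centromeric length was counted to the first base of the chromosome, although no junction lay below position 3097564, which lowers this ratio slightly. The centromeric side is longer, so a comparison over the distances that both sides reach, 1 to 41 Mb, was added after the data had been seen. There the log2 ratio averaged -0.21 (SD 0.15) in WT anti-CD40/IL4 libraries, with all 4 below 0. It was 1.14 (SD 0.21) in the RP105 libraries labelled WT, with all 3 above 0. In those labelled ATM-deficient it turned positive, at 0.31 (SD 0.048), with all 3 above 0. ATM-deficient anti-CD40/IL4 libraries averaged 0.10 (SD 0.30), with 2 of 3 above 0, and KU55933 libraries 0.79 (SD 0.37), with all 3 above 0.

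The balance between both sides also differed between groups. Of the chromosome 15 junctions beyond 1 Mb, the centromeric side held 50.5%, 54.3% and 59.3% in ATM-deficient libraries, 59.4%, 66.9% and 71.0% with KU55933, and 51.2%, 45.6%, 48.5% and 49.2% in WT anti-CD40/IL4 libraries. ATM-deficient and WT libraries overlapped, and KU55933 lay above WT. With 2 Mb around the break left out, ATM-deficient libraries exceeded WT by 9.79 points without overlap (exact permutation p = 0.0286), against 6.08 points (p = 0.0571 in the exact test) with all junctions. The lowest KU55933 library stood less than 0.1 points above the highest ATM-deficient one, and these groups overlapped with distinct positions or with junctions starting in CA repeats removed (exact permutation p = 0.2 in both). In RP105 libraries labelled ATM-deficient it held 56.2% ± 1.08, against 69.9% ± 2.96 in those labelled WT (SD, n = 3 each).

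Gene labels were carried by 3702 of the 9166 junctions, or 40.4%, and by 202 different labels. The share with a label was 42.6% ± 2.17 in ATM-deficient, 39.9% ± 3.06 in KU55933 (SD, n = 3 each) and 40.3% ± 4.13 in WT anti-CD40/IL4 libraries (SD, n = 4), with exact permutation p of 0.486 and 0.886 against WT. RP105 libraries labelled ATM-deficient had 46.6% ± 2.73 and those labelled WT 39.8% ± 1.17 (SD, n = 3 each). Of the labels, 87 had at least 10 junctions and entered the gene test, and 188 matched a RefSeq gene, whose length (GRCm38.p6) gave junctions per 100 kb. The median was 66.7 junctions per 100 kb for 36 tested genes within 10 Mb of the break and 11.1 for 48 beyond it, summed over all libraries.

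The 2 labels with most junctions lay near the break. Nsmce2, which encodes a SUMO ligase of the SMC5/6 complex, lay 2.39 to 2.61 Mb from the break and held 281, in all 16 libraries. It had 18, 18 and 10 junctions in the ATM-deficient, 23, 33 and 57 in the KU55933 and 7, 4, 3 and 5 in the WT anti-CD40/IL4 libraries. For every 1000 junctions beyond 1 Mb this came to 4.64 ± 1.05, 5.26 ± 1.35 (SD, n = 3 each) and 3.71 ± 1.61 (SD, n = 4), which overlapped. Mtss1, which encodes an actin and membrane binding scaffold, held 202, with 3.17 ± 0.888 per 1000 in ATM-deficient, 3.09 ± 0.0859 in KU55933 and 3.29 ± 0.840 in WT anti-CD40/IL4 libraries. In RP105 libraries Mtss1 had 8.40 ± 2.36 with the ATM-deficient label and 7.07 ± 1.197 with the WT label (SD, n = 3 each). Zhx2, a transcriptional repressor with zinc fingers and homeodomains, held 118, and Slc22a22, of the organic anion transporter family, 55.

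Longer genes farther out formed a second set. Csmd3, which encodes a very large transmembrane protein with CUB and sushi domains, held 135 junctions 13.2 to 14.4 Mb from the break. Ext1, a glycosyltransferase that extends heparan sulfate, held 125 at 8.64 to 8.91 Mb, and the neighbouring Samd12 held 124. Sntb1, a syntrophin of the dystrophin complex, held 114, and Col14a1, a fibril-associated collagen, 87. Still farther out, Ctnnd2, a delta-catenin of neurons, held 77 at 30.9 to 31.7 Mb and Trio 62 at 33.9 to 34.2 Mb. Per length Csmd3 and Ctnnd2 were sparser, at 11.1 and 8.99 junctions per 100 kb, against 124 in Nsmce2 and 142 in Mtss1. Ncald held 66, Trps1, a GATA-type repressor, 64, Deptor, an mTOR inhibitor, 63, and Oxr1, an oxidation resistance gene, 61. Vps13b, a Golgi protein, held 52, Zfpm2, a GATA cofactor, 50, and E430025E21Rik, Rims2, which acts at synaptic active zones, and Sema5a, a semaphorin, 49 each, which completes the 20 labels with most junctions.

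Few single genes passed the test. Ncald, a neuronal calcium sensor, was called higher in ATM-deficient than in WT anti-CD40/IL4 libraries, the 1 call among 87 genes of the region, where 0.305% of 328 genes of the genome were called higher and 0.61% lower. It had 5, 11 and 8 junctions in ATM-deficient, 10, 8 and 17 in KU55933, and 0 in each of the 4 WT libraries. Against a floor of 3 junctions over the WT group, it was at least 4.53-fold higher in ATM-deficient libraries (edgeR adjusted p = 0.00619) and at least 3.10-fold higher with KU55933 (adjusted p = 0.0429), where again 0.305% of genes were called higher. Neither call held in DESeq2, with adjusted p of 0.201 and 0.768. The call in ATM-deficient libraries was also lost without ATM-deficient replicate 3 or WT replicate 1, and with KU55933 without KU55933 replicate 3 or any 1 of the 4 WT libraries.

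Between stimuli in libraries labelled WT, 3 genes of the region were called higher under RP105 by edgeR, where 0.915% of genes were called higher and 2.13% lower. Ext1 had 11, 10 and 20 junctions under RP105, against 2, 1, 0 and 0 under anti-CD40/IL4, a ratio of 9.004 after depth (exact 95% counting interval 2.87 to 45.5, edgeR adjusted p = 0.00178). Slc22a22 had 4, 5 and 5, against 0 in each of 4, at least 3.07-fold higher (adjusted p = 0.0208). Trib1, which encodes a pseudokinase that steers proteins to degradation, had 5, 4 and 6, against 0 in each of 4, at least 3.29-fold higher (adjusted p = 0.0208). None of the 3 was called by DESeq2, where adjusted p were 0.210, 0.236 and 0.333. In edgeR the Ext1 call held without each of the 7 libraries in turn. The calls of Slc22a22 and Trib1 were lost without WT RP105 replicate 2 or any 1 of the 4 WT anti-CD40/IL4 libraries, and that of Trib1 also without WT RP105 replicate 1. Ext1 was also the 1 gene with a called interaction, at -4.63 (SE 1.12, adjusted p = 0.0117), where 0.305% of genes were called lower. It was lost in DESeq2 (adjusted p = 0.235) and without ATM-deficient RP105 replicate 1, ATM-deficient anti-CD40/IL4 replicate 2 or WT anti-CD40/IL4 replicate 3 or 4. Between the labels under RP105 0 of 87 genes were called in either direction by edgeR or DESeq2, as were 0 of 328 over the genome by edgeR, and 7 of the 87 had an unadjusted p under 0.05 in edgeR.

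Of 23 genes listed as nearest to the break, 17 were tested. None was called between ATM-deficient and WT anti-CD40/IL4 libraries, where 11 of 17 had a positive log2 fold change and the median was 0.89, against 1.00 over the 87 tested genes of the region and 0.44 over all genes tested. Of 25 long genes, many of them neuronal, 22 were tested, 18 had a positive change and the median was 1.10, with none called. Of 26 genes chosen as expressed in activated B cells or as housekeeping genes, 11 were tested, 8 had a positive change and the median was 0.41, with none called. Nsmce2, Sqle and Trib1 are both in this list and in that of genes nearest to the break, so the lists overlap. With KU55933 against WT the medians were 0.77, 1.40 and 0.59 for the 3 lists in that order, against 1.15 over the region and 0.40 over all genes. Under RP105, in libraries labelled ATM-deficient against those labelled WT, they were -0.75, -1.57 and -0.99, against -1.34 over the region and -0.56 over all genes, and none was called.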

How the data were processed

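The deposited lists hold 1 junction per row with its prey position, strand and gene label on mm9, the build per the submitters' processing notes. Aligner and filters: not given in the sources used here. Per the file headers, a score for the alignment and, in older files, a PCR count per junction were deposited, and neither entered a test. From the lists, 56 identical rows and 3 off-chromosome rows were left out and 1 broken record was rejoined.

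Junctions were tallied per library by feature, by bins of 5 Mb with at least 20 junctions and by gene label with at least 10. Groups were compared by edgeR's quasi-likelihood test (version 4.0.16, R 4.3.3) over all 16 libraries, with junctions beyond 1 Mb as library size, and adjusted by Benjamini-Hochberg over all features, bins or genes of a comparison. SE was taken as log2 fold change over the root of F. DESeq2 1.42.0, TMM factors, other library sizes, bins and minimums, distinct positions, a replicate block, a run block and leaving out each library were alternatives. Per-library shares were compared by exact permutation over 20 or 35 splits. Fits were tested on simulated data.

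The region, gene lists and named genes were chosen with earlier results of these data known. The genes named are the 20 labels with most junctions, any called gene or bin, and list members. Windows of 2 kb and printed stretches were chosen after seeing the junctions. Sequences were assembled from prey bases in the files, since no mm9 genome was used here. Start-site windows are from RefSeq (GRCm38.p6). Libraries held 4484 to 18264 junctions, of which 711 to 8370 lay beyond 1 Mb. Counting intervals and floors cover counting error only. Replicate numbers did not pair the libraries, with correlations of deviations between -0.083 and 0.161.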

Additional observations from a re-analysis of the deposited data

Results flagged for a closer look

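The difference between genotype labels itself differed between RP105 and anti-CD40/IL4 libraries, by the interaction term of edgeR, in which RP105 groups are as labelled. The libraries compared also differed in infection time, harvest day and sequencer, which cannot be told apart from the stimulus. The interaction (log2) was -2.04 for the region as a whole. By bins it was -1.32 at 1 to 6 Mb, -3.17 at 6 to 11 Mb, -3.09 at 11 to 16 Mb, -3.06 at 16 to 21 Mb, -2.76 at 21 to 26 Mb, -1.66 at 26 to 31 Mb, -2.24 at 31 to 36 Mb, -2.85 at 36 to 41 Mb and -2.41 at 51 to 56 Mb. For Ext1 it was -4.63.

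Among the 4 WT anti-CD40/IL4 libraries, 3 of 26 sets of values had a library far from the rest. For continuous values chance gives about 1 in 20 such sets, a rate that does not hold for counts this low, where 1 library above 0 and 3 at 0 always stand out. Samd12 had 2.38 junctions for every 1000 beyond 1 Mb in replicate 1, Oxr1 had 1.79 in replicate 1, with 0 in the others, and Trio had 1.10 in replicate 4, with 0 in the others. These rest on 4, 3 and 1 junctions.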

How the results depend on the processing

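For the region as 1 feature, all alternatives other than leaving out a library kept the direction and the side of the threshold in each comparison. Leaving out each library gave log2 values of 0.72 to 0.88 for ATM-deficient against WT and 0.86 to 1.12 for KU55933 against WT under anti-CD40/IL4. It gave -0.34 to -0.082 for ATM-deficient against KU55933, which passed the threshold without KU55933 replicate 1. Counts of called bins moved most with TMM factors, to 8 for ATM-deficient against WT, 11 for KU55933 against WT, 10 lower between the RP105 labels, 10 for RP105 against anti-CD40/IL4 labelled WT and 9 lower for the same contrast labelled ATM-deficient. With junctions outside chromosome 15 as library size they were 11 for KU55933 against WT, 10 lower between the RP105 labels and 10 for RP105 against anti-CD40/IL4 labelled WT. With bins of 2 Mb, 3 were lower between the RP105 labels, 10 higher and 1 lower in the contrasts of stimulus labelled WT and ATM-deficient, and DESeq2 gave 5 in the last. With distinct positions, or with positions shared within a run removed, both chosen after seeing the data, 3 bins were called for ATM-deficient against WT. The removal left 1 for the stimulus contrast labelled ATM-deficient, and the run block 2 for ATM-deficient against WT. Leaving out each library gave 2 to 5 bins for ATM-deficient against WT, 4 to 9 for KU55933 against WT, 0 to 3 lower for ATM-deficient against KU55933 and 0 to 1 for the stimulus contrast labelled ATM-deficient. Calls over all bins of the genome were not recorded for these alternatives. The counts therefore show only how calls in the region moved.

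Gene counts were the least stable. DESeq2 called 0 for ATM-deficient and for KU55933 against WT, 0 for the stimulus contrast labelled WT, 0 for the interaction and 1 lower for the stimulus contrast labelled ATM-deficient. TMM factors called 2, 21, 14 and 12 for the first 4. A minimum of 5 junctions called 0 for KU55933, 1 for the stimulus labelled WT and 0 for the interaction. Junctions outside chromosome 15 as library size called 2 for KU55933 and 13 for the stimulus labelled WT, distinct positions 5 for the stimulus labelled WT, the run block 0 for ATM-deficient, and the compared groups alone 0 for KU55933. The replicate block, whose numbers do not pair the libraries, called 0 genes for KU55933 and 1 for the stimulus labelled WT. Leaving out each library gave 0 to 1 for ATM-deficient, 0 to 2 for KU55933, 1 to 4 for the stimulus labelled WT and 0 to 1 for the interaction. As for bins, calls over all genes were not recorded for these alternatives, so the counts are not results about the region.

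Some differences in shares changed sign. With 2 Mb around the break left out, the gene label share of ATM-deficient minus WT was -2.04 points and the median distance of RP105 minus anti-CD40/IL4 labelled WT was -2.33 Mb. The share within 20 Mb between the RP105 labels was -0.037 points, and that within 5 Mb of RP105 minus anti-CD40/IL4 labelled WT was -7.61. Leaving out libraries gave -0.574 to 3.84 for the centromeric part in the stimulus contrast labelled ATM-deficient, -2.44 to 0.715 for the gene label share of KU55933 minus WT, -2.54 to 0.619 for that of the stimulus labelled WT, and -3.85 to 0.443 for the plus share of ATM-deficient minus KU55933. The causes were not tested. Depth was low for single genes: RP105 libraries labelled ATM-deficient held 69 to 195 and WT anti-CD40/IL4 libraries 89 to 190 junctions of the region.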
